A study of Homo sapiens with 8 samples.

Results

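The family of miR-103 and miR-107 consists of small RNAs cut from introns of the pantothenate kinase (PANK) genes. Its members here were taken by name as the rows hsa-miR-103a-3p, hsa-miR-107 and hsa-miR-103a-2-5p of the deposited count table, and no measured value entered that rule. They are 3 of 3112 rows, of which 1482 are known miRNAs and 1630 are miRNAs predicted by the authors. The products hsa-miR-103a-1-5p and hsa-miR-103b of the same loci have no row and were not analysed here.

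The samples were 786O cells, a widely used human cell line from a clear cell renal carcinoma, in 2 groups of 4. The circSOD2-sh group received a plasmid for a short hairpin RNA against circSOD2, a circular RNA of the SOD2 gene, and the negative control (NC) group received a control plasmid. According to the labels, plasmids were delivered with Lipofectamine 3000 and total RNA was taken 48 h later, whereas the methods of the study describe lentivirus and selection with puromycin. The question was which miRNAs differ in level between the groups. Both groups were grown in RPMI medium with serum. The level of circSOD2 was not analysed here. Neither the labels nor the methods say whether the 4 samples of a group came from separate cultures, so the p-values measure a spread between samples that may be technical.

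A miRNA guides Argonaute proteins to messenger RNAs, mostly through the seed, a short stretch near its 5′ end. miR-103a and miR-107 are known to lower DICER1, the enzyme that cuts miRNA hairpins, and have been studied for their part in insulin sensitivity and lipid metabolism. Their host genes encode the kinases that start the synthesis of coenzyme A.

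All 3 members have a mature sequence in RefSeq (GRCh38.p14). They are shown 5′ to 3′, with the seed (bases 2 to 8) in capitals, because the seed and the 3′ end decide which members can be told apart in the counts.
hsa-miR-103a-3p: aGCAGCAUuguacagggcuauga
hsa-miR-107: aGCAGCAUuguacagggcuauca
hsa-miR-103a-2-5p: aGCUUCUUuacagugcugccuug

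hsa-miR-103a-3p and hsa-miR-107 have the same seed, and no other mature name in RefSeq has it. Counted from 1 at the 5′ end, they differ by G22C and are identical through base 21 of 23, so a read that ends before base 22 cannot be assigned to either one. How the authors assigned such reads is not given in the sources used here. hsa-miR-365a-3p and hsa-miR-365b-3p, named after their values were seen, have the same RefSeq sequence and the same count in each of the 8 libraries, for example 2146 in NC replicate 1. The seed of hsa-miR-103a-2-5p is a different one. It comes from the opposite arm of a hairpin, and hsa-miR-103a-1-5p differs from it by A1G.

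The hairpins are shown because they tell which gene can give which member. In the RefSeq hairpins, 5′ to 3′, the mature arms that RefSeq lists are in capitals.
MIR103A1: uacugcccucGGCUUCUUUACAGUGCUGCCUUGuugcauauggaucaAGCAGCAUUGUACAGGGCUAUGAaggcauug
MIR103A2: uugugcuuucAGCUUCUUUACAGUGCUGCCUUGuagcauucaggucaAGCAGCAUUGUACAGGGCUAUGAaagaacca
MIR107: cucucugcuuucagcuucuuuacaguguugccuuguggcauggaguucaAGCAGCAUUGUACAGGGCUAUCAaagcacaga

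MIR103A1 lies at chr5:168560896-168560973 on the minus strand of GRCh38, in intron 5 of PANK3. MIR103A2 lies at chr20:3917494-3917571 on the plus strand, in intron 5 of PANK2. MIR107 lies at chr10:89592747-89592827 on the minus strand, in intron 5 of PANK1 in 2 of its 3 coding transcripts and in intron 4 in the other. Both MIR103A1 and MIR103A2 hold the whole sequence of hsa-miR-103a-3p, so its counts cannot be divided between PANK3 and PANK2. hsa-miR-103a-2-5p comes from MIR103A2. Bases 13 to 35 of the MIR107 hairpin match it except for C16U, counted on hsa-miR-103a-2-5p.

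The miR-15/16 miRNAs are the closest relatives by seed, and a few are shown to make the shift of the seed by a base visible.
hsa-miR-16-5p: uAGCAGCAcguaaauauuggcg
hsa-miR-15b-5p: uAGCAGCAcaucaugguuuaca
hsa-miR-497-5p: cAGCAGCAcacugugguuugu
hsa-miR-503-5p: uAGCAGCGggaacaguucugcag

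In 6 of the 8 listed relatives, bases 2 to 8 equal bases 1 to 7 of hsa-miR-103a-3p. In all 8, bases 2 to 7 equal its bases 1 to 6. hsa-miR-503-5p is among the relatives that share the shorter stretch alone.

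The NC libraries held 9245044, 8960761, 8007172 and 6386872 counts and the circSOD2-sh libraries 3972143, 4208276, 3743860 and 3920678, each in the order of replicates 1 to 4. Counts on known miRNAs were 3347100, 3573638, 3352498 and 2344870 in NC and 3776420, 4059249, 3604691 and 3753128 in circSOD2-sh. The library totals thus differed between the groups mainly through predicted miRNAs, which took 58.1% to 63.8% of an NC library and 3.54% to 4.93% of a circSOD2-sh library. Levels are therefore given as normalized CPM, counts scaled to a common library total (CPM) after that total was rescaled by TMM, a method that sets the bulk of the miRNAs to no change between libraries. On this scale a floor of 3 counts lay between 0.460 and 0.674 in the NC libraries and between 0.509 and 0.601 in the circSOD2-sh libraries. Poisson and binomial intervals and floors reflect counting error alone, since PCR copies cannot be told from separate molecules without molecular identifiers, whereas the intervals from limma reflect the spread between libraries.

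NC replicate 4 and circSOD2-sh replicate 2 stood apart in miRNAs that mark other tissues. The 4 stromal markers, led by hsa-miR-143-3p, had a summed level of 736 normalized CPM in NC replicate 4, where the rest of that group had 14.5 to 17.5. In circSOD2-sh replicate 2 the sum was 302, where the rest of that group had 18.5 to 52.1. The 5 neural markers reached 5010 normalized CPM in circSOD2-sh replicate 2 and 483 to 505 in the rest of that group, with 18220 counts of hsa-miR-124-3p there. Of the 4 leukocyte markers, led by hsa-miR-142-5p, hsa-miR-142-3p and hsa-miR-223-3p had at most 3 counts in every library. hsa-miR-142-5p had 71 counts in NC replicate 4 and 46 in circSOD2-sh replicate 2, and 4 to 15 elsewhere. hsa-miR-150-5p had 36 counts in circSOD2-sh replicate 2 and 0 to 2 elsewhere. The part of these differences in the levels of the family was not tested, and the fits were run with and without the pair of libraries. Among miRNAs known from renal carcinoma and the kidney, hsa-miR-21-5p had the highest mean of the known miRNAs over the 8 libraries, at 108129 to 154405 normalized CPM. hsa-miR-100-5p, named after its values were seen, had more counts than hsa-miR-21-5p in circSOD2-sh replicate 1 (777180 against 636777) and circSOD2-sh replicate 3 (689880 against 680441). The other carcinoma markers were rare, hsa-miR-210-3p at 13.9 to 27.0 normalized CPM (rank 238) and hsa-miR-155-5p at 8.83 to 15.8 (rank 270). With TMM they fell by 0.54 and 0.52 (adjusted p = 0.0150 and 0.0196 from edgeR), whereas with library totals they were at 0.43 and 0.44 and with the upper quartile at 0.30 and 0.31. With totals of known miRNAs they were at -0.89 and -0.86. hsa-miR-21-5p was at -0.0305 with TMM (adjusted p = 0.801 from edgeR), and it was called lower without circSOD2-sh replicate 2 (-0.23, adjusted p = 0.0379) and without NC replicate 4 and circSOD2-sh replicate 2 together (-0.25, adjusted p = 0.0164), whereas with library totals it was at 0.93 and with the upper quartile at 0.80. Thus 2 of 3 were called lower with TMM, beside 28.5% of the known miRNAs. hsa-miR-200b-3p, a marker of epithelial cells, had 17730 to 26583 counts. The other epithelial miRNAs listed were far lower, hsa-miR-200c-3p with 21 to 145 counts and hsa-miR-141-3p with 6 to 113. The highest count of both was in NC replicate 4, with at most 71 and 55 elsewhere. hsa-miR-204-5p, a marker of kidney tubules, had 164 counts in circSOD2-sh replicate 2 and 0 to 9 elsewhere.

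The 7 markers of kidney tubules and their epithelium, led by hsa-miR-200b-3p, summed to between 4160 and 5103 normalized CPM in the NC libraries and between 3608 and 3980 in the circSOD2-sh libraries. Of the 6 tested with edgeR, 4 were called lower at an adjusted p under 0.05, against 28.5% of the known miRNAs. Their median log2 fold change was -0.90 with TMM, where all 6 were below 0, whereas 4 were above 0 with library totals and 3 with the upper quartile, the scalings described below. This median depends on NC replicate 4, without which it was -0.37. hsa-miR-194-5p was also called lower without NC replicate 1 (0.0385), NC replicate 2 (0.0427), NC replicate 3 (0.0423) or circSOD2-sh replicate 2 (0.0313), and hsa-miR-215-5p without circSOD2-sh replicate 3 (0.0456). hsa-miR-192-5p was at -0.87 with all libraries and at -0.40 without NC replicate 4, and hsa-miR-200c-3p was nearest to 0 without that same library, at -0.91. Without NC replicate 4 and circSOD2-sh replicate 2 together, 5 were called lower. The part of these markers in the levels of the family was not tested.

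hsa-miR-103a-3p and hsa-miR-107 were both higher in circSOD2-sh after TMM scaling, by almost the same amount, whereas their share of all known-miRNA counts overlapped between the groups. hsa-miR-103a-2-5p was near the limit of detection in both groups. The level of hsa-miR-107 against hsa-miR-103a-3p did not differ by more than the spread between libraries. The samples are bulk RNA, so a change in the share of cells that hold a miRNA and a change in molecules per cell cannot be told apart.

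hsa-miR-103a-3p, the abundant guide of the family, had 15903, 17135, 16074 and 11399 counts in NC replicates 1 to 4 and 19812, 20606, 16956 and 18341 in circSOD2-sh replicates 1 to 4. These are 2437, 2636, 2738 and 2560 normalized CPM in NC and 3364, 3634, 3399 and 3259 in circSOD2-sh. Each of the 4 circSOD2-sh libraries was above every NC library, as was the case for 28.5% of the 895 miRNAs tested. NC averaged 2593 ± 127 normalized CPM and circSOD2-sh 3414 ± 158 (SD, n = 4 each). It ranked 33 among the 1482 known miRNAs in NC and 32 in circSOD2-sh. The exact two-sided permutation test gave p = 0.0286, the smallest that 4 libraries against 4 allow.

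hsa-miR-107, the name of the miRNA encoded in PANK1, had 767, 674, 708 and 436 counts in NC and 794, 961, 679 and 815 in circSOD2-sh. These are 118, 104, 121 and 97.9 normalized CPM in NC and 135, 169, 136 and 145 in circSOD2-sh. Again the lowest circSOD2-sh library lay above the highest NC library, and circSOD2-sh replicate 2 was the highest of its group. NC averaged 110 ± 10.9 normalized CPM and circSOD2-sh 146 ± 16.1 (SD, n = 4 each). Its rank was 124 in NC and 118 in circSOD2-sh, and the exact two-sided permutation test again gave p = 0.0286. What share of these counts came from reads that also match hsa-miR-103a-3p was not tested, since the table holds no reads.

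hsa-miR-103a-2-5p, the 5′ arm of MIR103A2, had 9, 12, 5 and 1 counts in NC and 4, 12, 8 and 3 in circSOD2-sh. Each group thus summed to 27 counts, with a 95% Poisson interval of 17.8 to 39.3. The levels were 1.38, 1.85, 0.852 and 0.225 normalized CPM in NC and 0.679, 2.12, 1.60 and 0.533 in circSOD2-sh, and the groups overlapped. NC replicate 4 and circSOD2-sh replicate 4 were at or under the floor of 3 counts. NC averaged 1.08 ± 0.698 normalized CPM and circSOD2-sh 1.23 ± 0.756 (SD, n = 4 each).

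**Figure D1:**
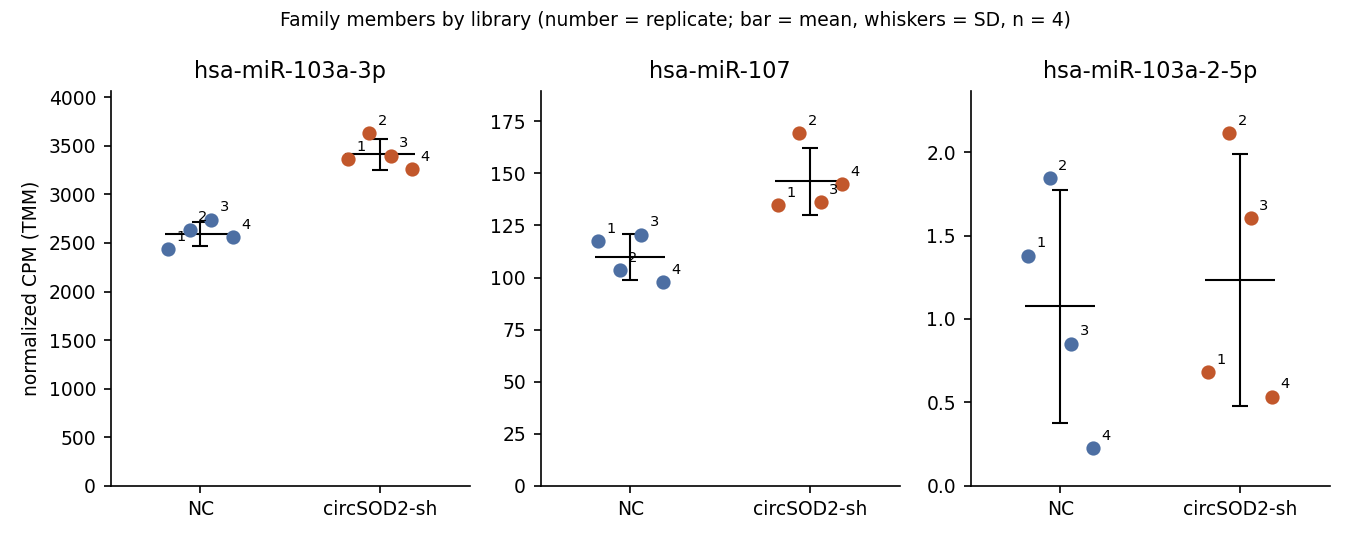
Normalized CPM (TMM) of the 3 members in each library, with points numbered by replicate, bars at the mean and whiskers of 1 SD (n = 4). The circSOD2-sh libraries lie above the NC libraries for hsa-miR-103a-3p (3259 to 3634 against 2437 to 2738) and hsa-miR-107 (135 to 169 against 97.9 to 121), and the groups overlap for hsa-miR-103a-2-5p.

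Of the 3 members, 2 passed the low-count filter of edgeR, and both passed an adjusted p of 0.05 with a higher level in circSOD2-sh. Among the 895 miRNAs tested, 298 (33.3%) were called higher and 290 (32.4%) lower. Among the 463 known miRNAs tested, 125 (27.0%) were called higher and 132 (28.5%) lower. A call in the same direction was thus common in this comparison. hsa-miR-103a-3p rose by a log2 fold change of 0.40 (SE 0.07, adjusted p = 0.000526 from edgeR), with 4 of 4 circSOD2-sh libraries above NC. hsa-miR-107 rose by 0.41 (SE 0.12, adjusted p = 0.0104 from edgeR), also with 4 of 4. The part of reads that match both names in this near-equality was not tested. Of the known miRNAs tested, 29.8% had a higher log2 fold change than hsa-miR-103a-3p and 29.4% a higher one than hsa-miR-107. hsa-miR-103a-2-5p did not pass the filter, and a fit of edgeR without the filter gave it 0.10 (SE 0.55, adjusted p = 0.919 over 3112 rows).

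The calls of the members held to different degrees with a library left out. The scaling factors were estimated anew in each such fit, so a removed library and a new scaling act together in these values. hsa-miR-103a-3p kept its call in all 8 fits that each left out a library, at log2 fold changes of 0.25 to 0.38, the lowest without circSOD2-sh replicate 3 (0.25) and circSOD2-sh replicate 2 (0.26). hsa-miR-107 lost it in 6 of 8 such fits, and its lowest log2 fold change was 0.23, without circSOD2-sh replicate 2. Its adjusted p from edgeR was 0.0799 without NC replicate 2, 0.0637 without NC replicate 4, 0.0557 without circSOD2-sh replicate 1, 0.0825 without circSOD2-sh replicate 2, 0.0766 without circSOD2-sh replicate 3 and 0.0751 without circSOD2-sh replicate 4, over a range of 0.0293 to 0.0825. An alternative chosen after seeing the data kept the scaling factors of the fit to 8 libraries. Both miRNAs then kept their calls in 8 of 8 fits. hsa-miR-103a-3p was at 0.37 to 0.42 (adjusted p 0.000672 to 0.00248 from edgeR) and hsa-miR-107 at 0.33 to 0.46 (adjusted p 0.0119 to 0.0360). With these kept factors hsa-miR-103a-3p was at 0.40 without circSOD2-sh replicate 3 and at 0.37 without circSOD2-sh replicate 2. Without NC replicate 4 and circSOD2-sh replicate 2 together, hsa-miR-103a-3p was at 0.26 (adjusted p = 0.0120) and hsa-miR-107 at 0.18 (adjusted p = 0.134). Over all 34 alternatives the adjusted p ranged from 6.74e-08 to 0.443 for hsa-miR-103a-3p and from 1.89e-06 to 0.628 for hsa-miR-107.

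The size of the rise depends on how the libraries are scaled. Over all tested miRNAs the median log2 fold change was -0.0022 with TMM, -0.053 with RLE size factors, 0.83 with the upper quartile, 0.96 with library totals and -0.35 with totals of known miRNAs, which was chosen after seeing the data. hsa-miR-103a-3p was at 0.40, 0.34, 1.24, 1.36 and 0.0525 in the same order. hsa-miR-107 was at 0.41, 0.36, 1.24, 1.38 and 0.065. Both were above 0 under each of these 5 scalings, but with totals of known miRNAs neither was called (adjusted p = 0.443 and 0.628). A rescaling moves all miRNAs nearly alike, so the distance from the median of all tested, 0.40 for hsa-miR-103a-3p and 0.41 for hsa-miR-107, is close to fixed by construction over these 5. It was 0.28 and 0.25 without NC replicate 4, and 0.63 and 0.65 among miRNAs with a mean of at least 50 counts. Library totals also moved the calls, to 613 higher and 158 lower, and the upper quartile to 570 and 160, against 298 and 290 with TMM. With totals of known miRNAs 214 were higher and 402 lower.

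**Figure D2:**
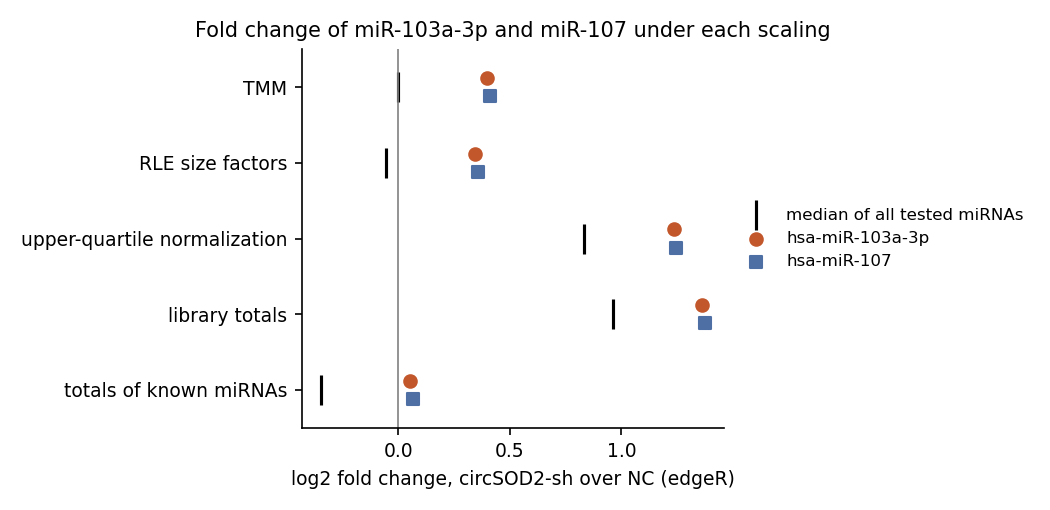
The log2 fold change of hsa-miR-103a-3p and hsa-miR-107 (x axis) is plotted under 5 ways of scaling the libraries (y axis), with a bar at the median of all tested miRNAs. Both miRNAs lie above 0 under each scaling, from 0.0525 to 1.36 for hsa-miR-103a-3p, and shift together with the median, which lies from -0.35 to 0.96.

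The share of the known-miRNA counts shows the scaling by totals of known miRNAs library by library. These totals move with abundant miRNAs such as hsa-miR-100-5p, which had 123446 of 3347100 known-miRNA counts in NC replicate 1 and 777180 of 3776420 in circSOD2-sh replicate 1. hsa-miR-103a-3p took 0.475%, 0.479%, 0.479% and 0.486% of the known-miRNA counts in NC and 0.525%, 0.508%, 0.470% and 0.489% in circSOD2-sh. The lowest library of all was circSOD2-sh replicate 3, and the 4 NC libraries lay closer together than the circSOD2-sh libraries. NC averaged 0.480 ± 0.00454% and circSOD2-sh 0.498 ± 0.0235% (SD, n = 4 each). hsa-miR-107 averaged 0.0204 ± 0.00204% and 0.0213 ± 0.00200% (SD, n = 4 each). For both miRNAs the groups overlapped on this scale.

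**Figure D3:**
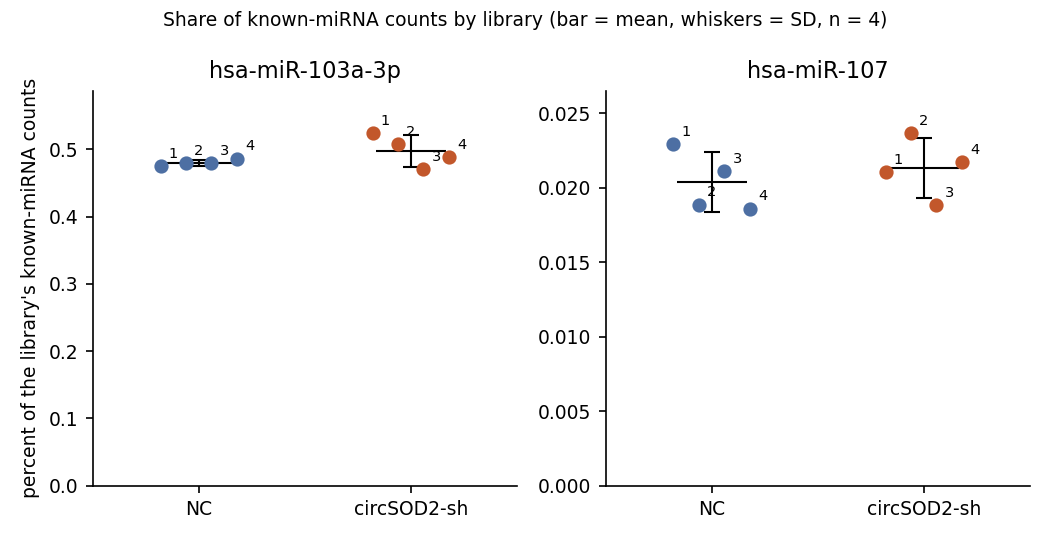
Counts of hsa-miR-103a-3p and hsa-miR-107 as a percent of each library's known-miRNA counts, with points numbered by replicate, bars at the mean and whiskers of 1 SD (n = 4). The groups overlap for both, with 0.475% to 0.486% in NC and 0.470% to 0.525% in circSOD2-sh for hsa-miR-103a-3p.

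The ratio of hsa-miR-107 to hsa-miR-103a-3p within a library does not depend on scaling. It is a ratio of listed counts, and since reads that end before base 22 match both names, it does not give the output of PANK1 against that of PANK2 and PANK3. hsa-miR-107 made up 4.60%, 3.78%, 4.22% and 3.68% of the sum of both in NC and 3.85%, 4.46%, 3.85% and 4.25% in circSOD2-sh. The exact 95% binomial interval was 4.29% to 4.93% in NC replicate 1, the highest library, and 3.35% to 4.04% in NC replicate 4, the lowest. The groups overlapped, and both the highest and the lowest library were NC libraries. NC averaged 4.07 ± 0.422% and circSOD2-sh 4.10 ± 0.302% (SD, n = 4 each), and each count of hsa-miR-107 stood beside 20.7 to 26.1 counts of hsa-miR-103a-3p.

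As a log2 ratio, NC averaged -4.56 ± 0.15 and circSOD2-sh -4.55 ± 0.11 (SD, n = 4 each). The difference was 0.014 with a 95% interval of -0.23 to 0.26 (adjusted p = 0.914 from limma), and the exact two-sided permutation test gave p = 0.857. On the fold scale the interval runs from 0.853 to 1.20. A p that misses the threshold does not show that the ratio did not differ. In the same fit, 328 of 463 miRNAs (70.8%) changed relative to hsa-miR-103a-3p at an adjusted p under 0.05. That share includes the offset of hsa-miR-103a-3p itself, which was at 0.40 with TMM where the median of the known miRNAs was -0.11. The sign of the difference turned when NC replicate 2 (-0.0207), NC replicate 4 (-0.034), circSOD2-sh replicate 2 (-0.0282) or circSOD2-sh replicate 4 (-0.005) was left out, and it was -0.0763 without NC replicate 4 and circSOD2-sh replicate 2 together.

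**Figure D4:**
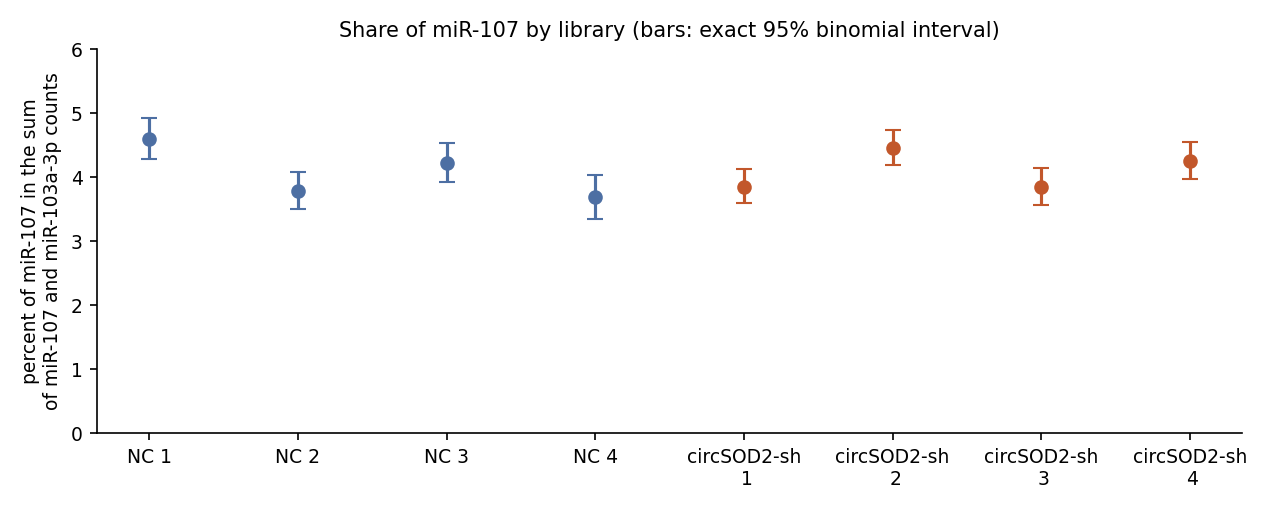
Share of hsa-miR-107 in the summed counts of hsa-miR-107 and hsa-miR-103a-3p in each library, in percent, with bars for the exact 95% binomial interval. The NC libraries lie from 3.68% to 4.60% and the circSOD2-sh libraries from 3.85% to 4.46%.

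The 5′ arm was rare beside the 3′ arm in both groups. Over the summed libraries there were 2241 counts of hsa-miR-103a-3p per count of hsa-miR-103a-2-5p in NC (95% binomial interval 1540 to 3401). In circSOD2-sh there were 2804 (95% binomial interval 1927 to 4256). These intervals hold the counting error of the summed counts and not the spread between libraries, where hsa-miR-103a-2-5p had 1 to 12 counts. hsa-miR-103a-3p also comes from MIR103A1, so neither value is the ratio of the arms of a single hairpin. The log2 ratio of hsa-miR-103a-2-5p to hsa-miR-103a-3p differed between the groups by -0.14 (95% interval -1.58 to 1.29, adjusted p = 0.851 from limma). Without NC replicate 4 the difference was -0.65, and without NC replicate 4 and circSOD2-sh replicate 2 together it was -0.93 (adjusted p = 0.114 from limma, over a range of 0.114 to 0.956). The sign turned without NC replicate 1 (0.0814), NC replicate 2 (0.18), circSOD2-sh replicate 1 (0.0488) or circSOD2-sh replicate 4 (0.13).

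By the pattern over the 8 libraries, the known miRNAs most like hsa-miR-103a-3p were hsa-miR-191-5p, hsa-miR-92b-3p, hsa-miR-93-5p, hsa-let-7d-5p and hsa-miR-26a-5p. Likeness was the root mean square difference of log2 normalized CPM, each miRNA centred on its own mean, among 134 other known miRNAs with a mean of at least 100 normalized CPM. It was 0.0651, 0.0738, 0.0885, 0.0895 and 0.0943 for these, against a median of 0.379 for all. hsa-miR-107 came 10th at 0.116. The miRNAs most like hsa-miR-107 were hsa-miR-103a-3p at 0.116, hsa-miR-93-5p at 0.117, hsa-miR-17-5p at 0.118, hsa-miR-191-5p at 0.129 and hsa-miR-92b-3p at 0.138, against a median of 0.408 for all. hsa-miR-191-5p, hsa-miR-93-5p and hsa-miR-92b-3p are on both lists.

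Reference miRNAs are used to normalize assays of single miRNAs, and hsa-miR-103a-3p and hsa-miR-191-5p are often among them. Of the 6 listed, 4 were called higher, 1 lower and 1 neither, beside 27.0% higher and 28.5% lower of the known miRNAs, with a median log2 fold change of 0.40 against -0.0022 over all tested and -0.11 over the known ones. Under library totals and the upper quartile all 6 lay above 0, and with totals of known miRNAs the median was 0.0557. The median was 0.22 without circSOD2-sh replicate 3, where 1 was called higher and 2 lower. hsa-miR-191-5p rose by 0.36, hsa-miR-93-5p by 0.44, hsa-miR-423-3p by 0.50 and hsa-miR-425-5p by 1.00 with TMM. With totals of known miRNAs these were 0.0131, 0.0983, 0.16 and 0.65. hsa-miR-16-5p, a relative of the family by seed, fell by 0.58 with TMM and was above 0 at 0.38 with library totals and 0.25 with the upper quartile. Without circSOD2-sh replicate 3 hsa-miR-93-5p was at 0.26 (adjusted p = 0.0843) and hsa-miR-191-5p at 0.18 (adjusted p = 0.119), and without circSOD2-sh replicate 4 hsa-miR-191-5p was at 0.23. hsa-miR-423-3p lost its call without NC replicate 1 (0.0511), NC replicate 2 (0.0783), circSOD2-sh replicate 1 (0.111), circSOD2-sh replicate 3 (0.116) or circSOD2-sh replicate 4 (0.0651), with log2 fold changes of 0.45, 0.34, 0.33, 0.33 and 0.42. hsa-miR-423-5p, not called with all libraries, was called lower without NC replicate 3 (0.0429), circSOD2-sh replicate 2 (0.00997) or circSOD2-sh replicate 3 (0.0446). Without NC replicate 4 and circSOD2-sh replicate 2 together, 4 were called higher and 2 lower.

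The miR-15/16 relatives, whose seed overlaps that of hsa-miR-103a-3p by the shift shown above, are known to repress cell cycle genes. Of the 7 tested, 1 was called higher, 5 lower and 1 neither, with a median of -0.55. The shares over the known miRNAs were 27.0% higher and 28.5% lower, with a median of -0.11. With TMM 1 lay above 0 and 6 below, whereas with library totals or the upper quartile 6 lay above 0 and 1 below, and with totals of known miRNAs the median was -0.90. hsa-miR-16-5p averaged 8257 ± 373 normalized CPM in NC and 5507 ± 587 in circSOD2-sh (SD, n = 4 each). hsa-miR-497-5p fell by 1.62, and it stayed below 0 with library totals at -0.66 and with the upper quartile at -0.78. hsa-miR-15b-5p was the exception among them, averaging 690 ± 57.2 normalized CPM in NC and 10225 ± 3895 in circSOD2-sh (SD, n = 4 each), a rise of 3.89 (adjusted p = 1.68e-06 from edgeR). hsa-miR-15a-5p, hsa-miR-424-5p and hsa-miR-503-5p fell by 0.63, 0.53 and 0.55. hsa-miR-195-5p was at -0.40 (adjusted p = 0.0883 from edgeR) and was called lower without circSOD2-sh replicate 2 (-0.73, adjusted p = 0.000766) or circSOD2-sh replicate 3 (-0.53, adjusted p = 0.0483). Without NC replicate 4 and circSOD2-sh replicate 2 together, 1 was called higher and 6 lower.

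The let-7 guides, which repress growth genes and make another large family, are set beside miR-103a and miR-107 because DICER1 cuts their hairpins. Of the 9 tested, 1 was called higher, 4 lower and 4 neither, with a median of -0.29, where known miRNAs had 27.0% higher, 28.5% lower and -0.11. With TMM 1 lay above 0 and 8 below, whereas all 9 lay above 0 with library totals or the upper quartile, and the median with totals of known miRNAs was -0.63. The median was -0.45 without circSOD2-sh replicate 1 and -0.51 without circSOD2-sh replicate 3. hsa-let-7a-5p fell by 0.62, hsa-let-7b-5p by 0.52, hsa-let-7e-5p by 0.65 and hsa-let-7i-5p by 0.42, while hsa-let-7d-5p rose by 0.41 with TMM and was at 0.066 with totals of known miRNAs. Without circSOD2-sh replicate 3 hsa-let-7d-5p was at 0.25 and not called (adjusted p = 0.0688). hsa-let-7c-5p, not called with all libraries, was called lower without circSOD2-sh replicate 2 (0.0112). hsa-let-7f-5p was called lower without NC replicate 1 (0.0256) or circSOD2-sh replicate 1 (0.0275), 2 (0.0249), 3 (0.0169) or 4 (0.0389). hsa-let-7g-5p was called lower in the same 5 fits (0.0326, 0.0219, 0.00686, 0.0103 and 0.0390). The scaling factors were estimated anew in each fit. The median of the known miRNAs was -0.26 without circSOD2-sh replicate 2 and -0.24 without circSOD2-sh replicate 3. The part of the scaling in these calls was not tested. hsa-miR-98-5p was called lower without circSOD2-sh replicate 2 (0.0484), 3 (0.0296) or 4 (0.0452). Without NC replicate 4 and circSOD2-sh replicate 2 together, 1 was called higher and 7 lower. DICER1 was not analysed here.

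Other miRNAs from introns of genes of lipid and energy metabolism are miR-33a, miR-33b and miR-378a, of the genes SREBF2, SREBF1 and PPARGC1B. Of 5 tested, 1 was called higher, 1 lower and 3 neither, close to the 27.0% higher and 28.5% lower of the known miRNAs. The median was -0.21, and with library totals or the upper quartile all 5 lay above 0. The median was -0.56 with totals of known miRNAs, -0.35 without circSOD2-sh replicate 2, -0.36 without circSOD2-sh replicate 3 and -0.32 without circSOD2-sh replicate 4. hsa-miR-33a-5p, which represses the cholesterol exporter ABCA1, fell by 0.39 with TMM. It lost its call without NC replicate 1 (-0.40, adjusted p = 0.0608 from edgeR) or NC replicate 4 (-0.39, adjusted p = 0.0844), at about the same log2 fold change. hsa-miR-378a-5p rose by 4.05 from 0.809 ± 1.14 normalized CPM in NC to 12.1 ± 2.24 in circSOD2-sh (SD, n = 4 each). Its NC counts were 4, 1, 0 and 11, with NC replicates 2 and 3 under the floor of 3 counts. The value depends on NC replicate 4, without which it was 5.36, and it was 5.27 without NC replicate 4 and circSOD2-sh replicate 2 together. hsa-miR-378a-3p, of the same hairpin, was at -0.21 (adjusted p = 0.0699 from edgeR). It was called lower without NC replicate 1 (0.0400), NC replicate 3 (0.0424), circSOD2-sh replicate 1 (0.0323), circSOD2-sh replicate 2 (0.00789), circSOD2-sh replicate 3 (0.0185) or circSOD2-sh replicate 4 (0.0251). With NC replicate 4 and circSOD2-sh replicate 2 both left out, 1 of the list was called higher and 1 lower, with hsa-miR-33a-5p not called (-0.44, adjusted p = 0.0903) and hsa-miR-378a-3p called lower (-0.28, adjusted p = 0.0151).

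**Figure D5:**
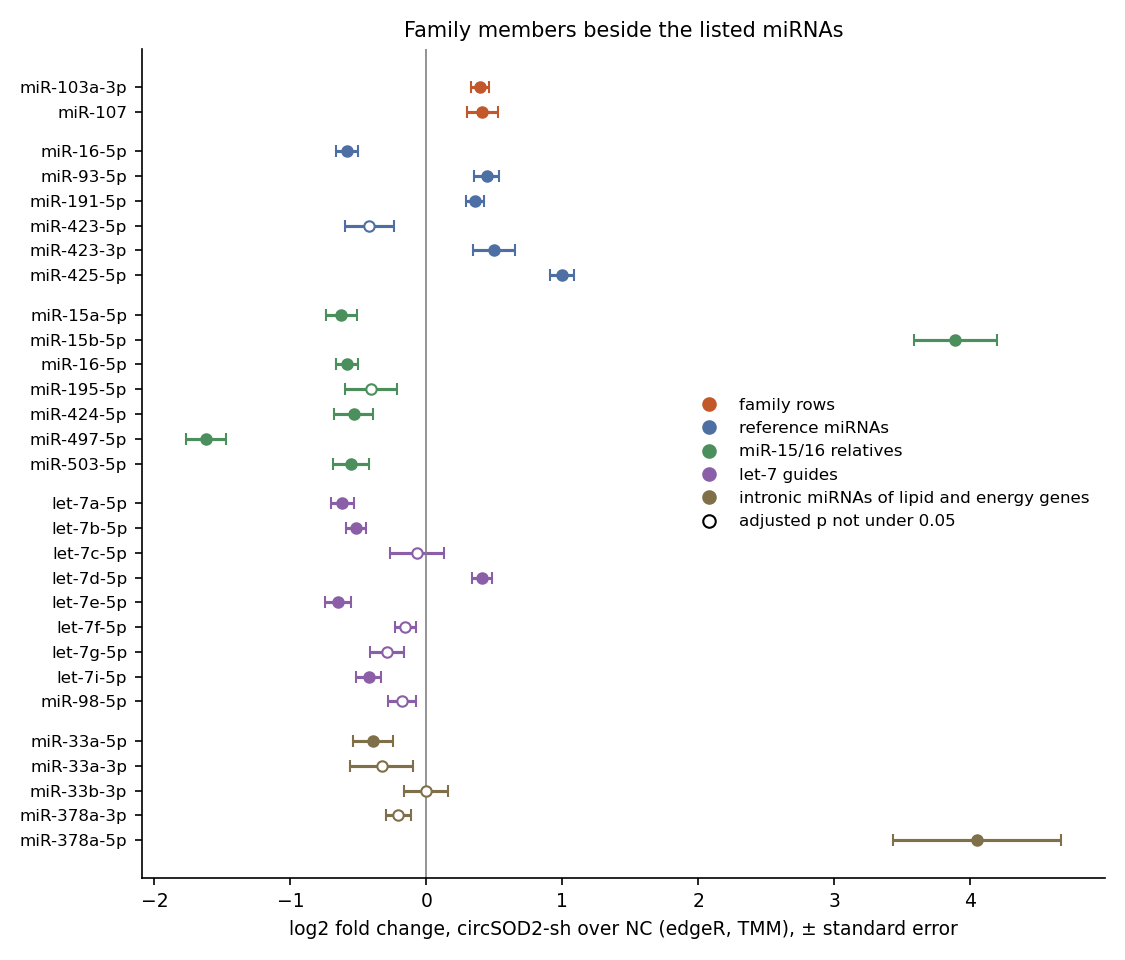
The log2 fold change (TMM, circSOD2-sh over NC) of each tested miRNA of the lists, with its standard error; filled points have an adjusted p under 0.05 and open points do not. hsa-miR-103a-3p (0.40) and hsa-miR-107 (0.41) lie near the median of the reference miRNAs (0.40) with TMM. The reference miRNAs themselves spread from -0.58 (hsa-miR-16-5p) to 1.00 (hsa-miR-425-5p). The medians of the miR-15/16 relatives (-0.55), let-7 guides (-0.29) and intronic miRNAs (-0.21) lie below 0 with TMM. With library totals or the upper quartile these medians lie above 0.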

How the data were processed

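Small RNA of 8 samples, 4 NC and 4 circSOD2-sh, was counted per mature miRNA by the authors, who deposited raw counts without normalization. The authors also deposited CPM, computed over totals larger than the listed counts, so that the listed CPM sum to between 836915 and 938988 per library. Their comparison table, which holds group means, fold changes and p-values, was not used. The submitters' processing notes name FastQC 0.11.2, Trimmomatic 0.36, Bowtie 1.1.1 and GRCh38, and the counting tool and the miRNA annotation are not given in the sources used here. Columns were assigned to samples by their names.

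edgeR 4.0.16 in R 4.3.3 was used to fit the counts (filterByExpr with a minimum count of 10, TMM, quasi-likelihood test, prior count 0.125), and p-values were adjusted by Benjamini-Hochberg over all 895 miRNAs that passed. Ratios to hsa-miR-103a-3p used counts plus 0.5 and were fitted with limma 3.58.1 over 463 miRNAs, the other known miRNAs tested and hsa-miR-103a-2-5p, added although it did not pass the filter. Exact permutation tests were two-sided, over log2 of normalized CPM plus 1 for levels and over the log2 ratio for ratios. Alternatives were scaling by library totals, the upper quartile or RLE size factors, DESeq2 1.42.0, no filter, a mean of at least 50 counts, known miRNAs only, limma on log2 of the deposited CPM plus 1, the replicate number as a block, each library left out in turn, and NC replicate 4 and circSOD2-sh replicate 2 left out together. Chosen after seeing the data were TMM referred to any of the 7 remaining libraries, totals of known miRNAs, and leaving out a library with the scaling factors kept. For hsa-miR-103a-2-5p, running the alternatives without the filter and entering its row in the ratio fit were also chosen then. The fits were checked on simulated data.

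The members and lists were chosen with earlier results of these data known. The miRNAs named were the 3 members, those of the lists that passed the test with at most 4 others, and the 5 known miRNAs most like hsa-miR-103a-3p and hsa-miR-107 in pattern. A miRNA was a candidate for likeness with a mean of at least 100 normalized CPM and, a condition added after seeing the data, a count in every library, which dropped 1 of 136. Marker lists of other tissues were summed per library. Sequences and hairpin positions came from RefSeq on GRCh38.p14 and introns from GENCODE 29. Tables used Python 3.11.15, pandas 2.3.3 and scipy 1.17.1, and figures used matplotlib 3.10.9.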

Additional observations from a re-analysis of the deposited data

Results flagged for a closer look

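In 84 groups of 4 libraries, 10 had a library far from the other 3. Far was judged by its distance to the nearest other library over that to the farthest, 0.83 to 0.998 in those flagged. Chance would give about 1 in 20 independent groups, or 4.2. These groups share libraries, and the lists were chosen with earlier results of these data known, so no conclusion is drawn from that number. Of the 10 flagged, 4 were NC replicate 4 and 6 were circSOD2-sh replicate 2, and none was a value of hsa-miR-103a-3p, hsa-miR-107 or hsa-miR-103a-2-5p. In circSOD2-sh replicate 2, hsa-miR-16-5p was at 6382 normalized CPM, hsa-let-7c-5p at 372.0 and hsa-let-7e-5p at 362, each above the rest of its group. The same library had the highest sum of neural markers (5010 normalized CPM), leukocyte markers (14.6) and stromal markers (302) of its group. In NC replicate 4 the sums of leukocyte markers (17.1 normalized CPM), erythroid markers (171), muscle markers (47.4) and stromal markers (736) were the highest of its group. The cause was not tested.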

How the results depend on the processing

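hsa-miR-103a-3p and hsa-miR-107 lay above 0 in all 34 alternatives each, and the call of hsa-miR-103a-3p was kept in 33 and that of hsa-miR-107 in 25. Chosen after seeing the data were the 7 other TMM references, the 8 fits with kept scaling factors and totals of known miRNAs. With totals of known miRNAs, which lower the median of all tested, hsa-miR-103a-3p was at 0.0525 and hsa-miR-107 at 0.065, and neither was called. hsa-miR-107 was also not called without NC replicate 4 and circSOD2-sh replicate 2 together (0.18) or with TMM referred to circSOD2-sh replicate 2 (0.28). It lost its call in 6 of the 8 fits with a library left out and scaling estimated anew, and in none of the 8 with kept factors. With each library left out, log2 fold changes were 0.25 to 0.38 for hsa-miR-103a-3p and 0.23 to 0.41 for hsa-miR-107. With the scaling factors kept they were 0.37 to 0.42 and 0.33 to 0.46. With the replicate number as a block they were 0.40 and 0.41 (adjusted p = 0.000993 and 0.0250 from edgeR). Profiles of equally numbered samples correlated at 0.26, -0.0994, 0.0965 and -0.17 for replicates 1 to 4. The best partner had the same number for replicates 1 and 3 but not for 2 and 4. The numbers thus do not pair the samples consistently.

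hsa-miR-103a-2-5p, with 1 to 12 counts per library, ranged from -0.33 to 0.48 with a library left out and was at -0.60 without NC replicate 4 and circSOD2-sh replicate 2 together. It was below 0 without NC replicate 3 (-0.0232), NC replicate 4 (-0.19), circSOD2-sh replicate 2 (-0.33) or circSOD2-sh replicate 3 (-0.0988), and no fit called it. A mean of at least 50 counts gave it no value. With the block it was at 0.14, and with library totals at 1.06. The log2 ratio of hsa-miR-107 to hsa-miR-103a-3p ranged from -0.034 to 0.0773 with a library left out, was -0.0763 without both and 0.0141 with the block. The ratio of hsa-miR-103a-2-5p to hsa-miR-103a-3p ranged from -0.65 to 0.18, was -0.93 without both (adjusted p = 0.114, range 0.114 to 0.956) and -0.14 with the block.

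The number of miRNAs called higher was 613 with library totals, 570 with the upper quartile, 559 with limma on CPM, 149 with a mean of at least 50 counts and 123 with known miRNAs only. The number called lower was 158, 160 and 163 for the first of these, 212 with a mean of at least 50 counts and 123 with known miRNAs only. With the block they were 296 and 278. Fewer miRNAs were tested with the higher minimum and with known miRNAs only. For the others the cause was not tested. With a library left out, 256 to 303 were higher and 279 to 358 lower.

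hsa-miR-103a-2-5p had 27 counts per group, and its log2 ratio has a 95% interval of -1.58 to 1.29 from the spread between libraries; the part of depth in that spread was not tested. A common change of all miRNAs cannot be told from a difference in library totals without added standards.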
